A study of Mus musculus with 2 samples.

Results

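The 3 uncoupling protein genes of the mouse, Ucp1, Ucp2 and Ucp3, were examined for chromatin occupancy by the thyroid hormone receptor TRα1 in brown adipose tissue. A TR binding site (TRBS) is a peak of the deposited list, and a TRBS was taken as a member when its summit, where fragments pile up most, lay within 100 kb of the transcription start site (TSS) of one of these genes. This gave 15 of 5107 TRBS. Ucp1 on chromosome 8 had 7 of them. Ucp3 and Ucp2 are neighbours on chromosome 7, 20347 bp from TSS to TSS, and the same 8 TRBS lay within 100 kb of both.

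The tissue came from adult male C57BL/6J mice aged 8 to 12 weeks, whose brown adipocytes alone expressed TRα1 with a GS tag. All mice were made hypothyroid with a propylthiouracil diet over 2 weeks and then received thyroid hormone for 24 h. The paper gives a single injection of triiodothyronine (T3) with thyroxine for its RNA samples of this tissue. For the ChIP it names only the hormones. There was 1 ChIP library, precipitated with an antibody that the labels describe only as directed to TRα, and 1 input library of the same tissue without antibody. The driver that restricted the tag to brown adipocytes and the number of mice pooled are not given in the sources used here, and hypothyroid tissue that received no hormone was not analysed here. Without replicates no difference was tested, and the intervals below cover counting error in these libraries only, for fragments without molecular identifiers, which need not be independent molecules. RNA was not part of these libraries, so the markers of the labelled cell type could not be checked.

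Uncoupling protein 1 sits in the inner mitochondrial membrane of brown adipocytes and lets protons return to the matrix without making ATP, so that respiration releases heat. Ucp2 is expressed in many tissues and Ucp3 mainly in skeletal muscle and brown adipose tissue, and their proteins are related carriers whose role in uncoupling is less settled. Thyroid hormone and noradrenaline both raise Ucp1 transcription in brown adipocytes, and the rodent gene is known for an enhancer a few kb upstream of its promoter, where cAMP response elements (CRE) and nuclear receptor elements lie close together. TRα1 binds DNA mainly as a heterodimer with the retinoid X receptor. Its best known element is DR4, a direct repeat of the half-site AGGTCA with a 4 bp spacer.

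The sequences around the summits that the results turn on are given here in the GRCm38 build, plus strand, 200 bp each. TRBS are numbered along the chromosome within each locus. Ucp1 TRBS 4 and 5 were the strongest of the 15, Ucp1 TRBS 3 was the richest in half-sites, Ucp1 TRBS 1 held the only DR4 without a mismatch among the 15, and Ucp2-Ucp3 TRBS 5 and 1 are the strongest at that locus and the one with its closest DR4. Capitals mark exact half-sites, AGGTCA or GGGTCA, which appear as TGACCT or TGACCC where they lie on the minus strand.
Ucp1 TRBS 4, chr8:83285738-83285937: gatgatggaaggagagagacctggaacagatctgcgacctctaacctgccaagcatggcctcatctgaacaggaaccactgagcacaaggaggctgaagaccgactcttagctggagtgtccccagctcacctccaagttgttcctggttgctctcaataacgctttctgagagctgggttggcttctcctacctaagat
Ucp1 TRBS 5, chr8:83287790-83287989: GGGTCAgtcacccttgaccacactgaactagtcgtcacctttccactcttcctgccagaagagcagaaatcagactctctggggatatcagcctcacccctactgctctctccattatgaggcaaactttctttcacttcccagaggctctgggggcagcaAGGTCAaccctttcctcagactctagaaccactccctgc
Ucp1 TRBS 3, chr8:83284403-83284602: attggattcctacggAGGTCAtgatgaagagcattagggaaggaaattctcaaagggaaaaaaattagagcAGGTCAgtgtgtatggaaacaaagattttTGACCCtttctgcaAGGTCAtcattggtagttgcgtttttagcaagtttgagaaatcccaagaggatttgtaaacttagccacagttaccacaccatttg
Ucp1 TRBS 1, chr8:83234518-83234717: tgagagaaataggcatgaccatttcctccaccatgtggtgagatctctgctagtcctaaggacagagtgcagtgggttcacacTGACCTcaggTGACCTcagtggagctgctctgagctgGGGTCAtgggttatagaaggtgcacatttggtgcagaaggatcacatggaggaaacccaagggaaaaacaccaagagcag
Ucp2-Ucp3 TRBS 5, chr7:100471304-100471503: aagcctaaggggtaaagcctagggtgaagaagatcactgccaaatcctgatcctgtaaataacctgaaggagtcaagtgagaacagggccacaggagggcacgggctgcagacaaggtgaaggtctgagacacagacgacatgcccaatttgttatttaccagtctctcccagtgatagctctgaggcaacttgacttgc
Ucp2-Ucp3 TRBS 1, chr7:100434297-100434496: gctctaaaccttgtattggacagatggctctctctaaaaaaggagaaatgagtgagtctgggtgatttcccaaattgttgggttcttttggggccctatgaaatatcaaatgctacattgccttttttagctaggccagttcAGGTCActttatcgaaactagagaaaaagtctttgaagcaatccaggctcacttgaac

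Ucp1 (chr8:83290352-83298452, plus strand) had the strongest TRα1 occupancy of the 3 genes, and most of it lay within 6 kb upstream of the TSS. The TRBS with most ChIP fragments was TRBS 4 (chr8:83285279-83286278, intergenic, 1000 bp wide), with its summit 4514 bp upstream of the TSS. It held 362 fragments at the summit, with a 95% Poisson interval of 326 to 401, and a fold over input of 65.2. TRBS 5 (chr8:83287488-83288326, intergenic, 839 bp wide) had its summit 2462 bp upstream. It held 267 fragments (236 to 301), and its fold was 62.7.

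These fragment numbers are large for this list, whose median TRBS held 17 fragments with a fold of 9.83. Of the 5107 TRBS, 24 had an input background over 100 fragments, and all of those had more ChIP fragments than TRBS 4. Among the other 5083 TRBS, TRBS 4 ranked 1 by fragments, with no correction for its raised input, and TRBS 5 ranked 3, behind a site on chromosome 17 with 282 fragments. A level of at least 200 fragments, a value set after the members had been seen, was reached by 2 of the 15 members and by 0.529% of all TRBS. By fold, which divides by the input background, both stood lower: 29 and 30 of 5107. The ratio of fragments at TRBS 4 to those at TRBS 5 was 1.36, with an exact 95% interval of 1.15 to 1.59 for counting error alone. TRBS 4 is the highest of the members, and its input background was 4.57 against 3.28 at TRBS 5. Their folds were close.

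**Figure D1:**
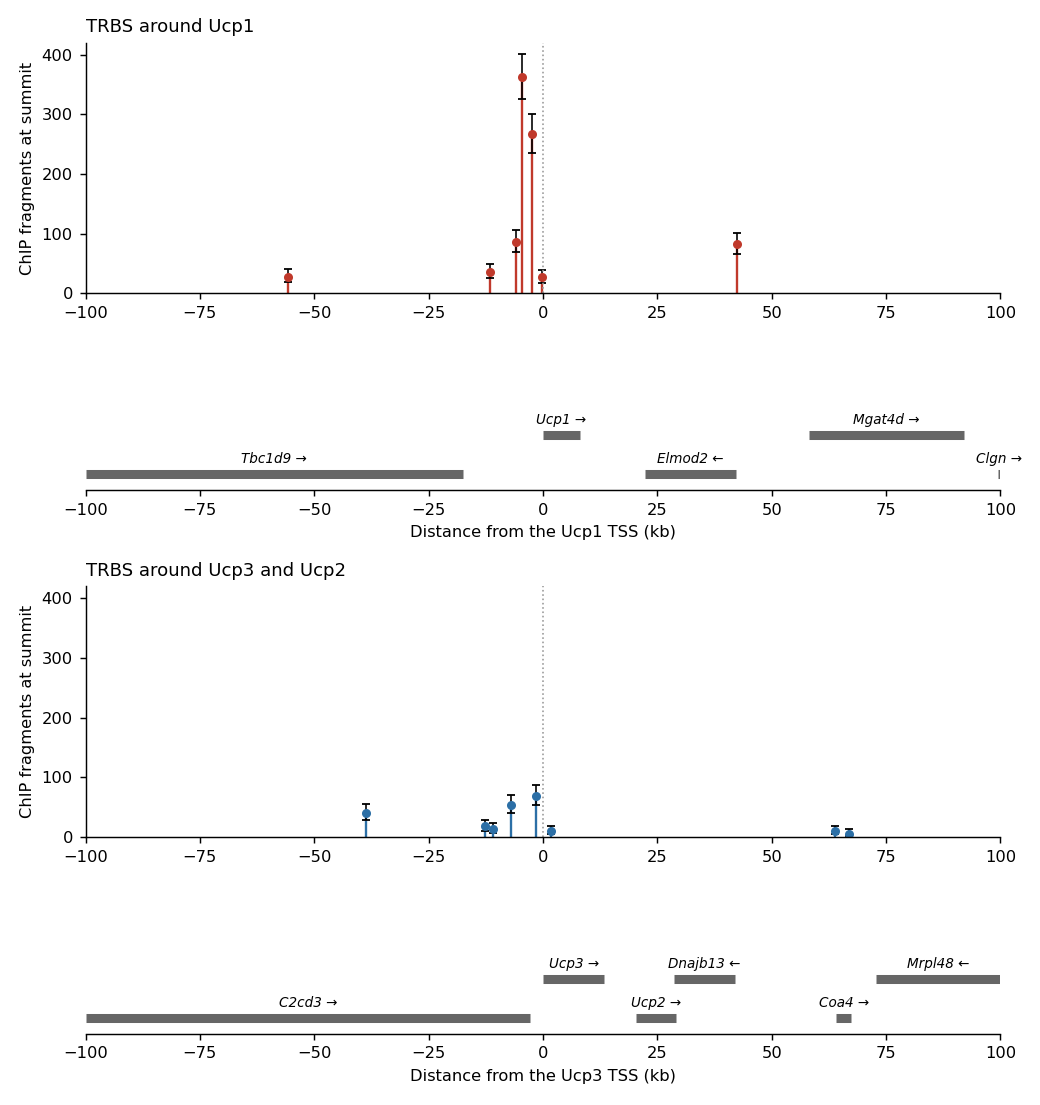
Fragments at the summit of each TRBS (vertical axis, ChIP fragments, with 95% Poisson intervals) by distance from the TSS of Ucp1 (top) and of Ucp3 (bottom) in kb, with the bodies of protein-coding genes under each plot and arrows for their strand. The values at Ucp1 reach 362, and those at the Ucp2-Ucp3 locus stay between 6 and 69.

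The upstream enhancer of Ucp1 was taken as the window from 3000 to 2000 bp upstream of the TSS. Exactly 1 TRBS met it, TRBS 5, which lay wholly inside the window, from 2864 to 2026 bp upstream. TRBS 4, the stronger by fragments, lay outside, from 5073 to 4074 bp upstream, and its summit was 2052 bp farther from the gene than that of TRBS 5. The promoter, taken as 1000 bp upstream to 100 bp downstream of the TSS, carried TRBS 6, which had fewer fragments than the other 6 TRBS at Ucp1. TRBS 6 (chr8:83290004-83290484) spanned the TSS, with its summit 117 bp upstream, 27 fragments (17.8 to 39.3) and a fold of 7.49. Of all TRBS, 74.0% had fewer fragments than this site, while its fold was below the median of the list.

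Of the remaining TRBS at Ucp1, TRBS 3 (chr8:83284254-83284882, intergenic) lay 5849 bp upstream, 1335 bp from the summit of TRBS 4. It held 86 fragments (68.8 to 106) with a fold of 16.2. TRBS 2 (chr8:83278592-83278987, intergenic) lay 11606 bp upstream with 36 fragments (25.2 to 49.8) and a fold of 8.51. TRBS 1 (chr8:83234399-83234801) lay 55734 bp upstream, in an intron of the neighbouring gene Tbc1d9, with 28 fragments (18.6 to 40.5) and a fold of 12.4. Upstream of the promoter, fragments thus peaked at TRBS 4 and were lower both toward the gene and away from it.

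The only TRBS downstream of Ucp1 was TRBS 7 (chr8:83332587-83332889), 42351 bp from its TSS. It lay 217 bp upstream of the TSS of Elmod2, so its nearest gene is Elmod2 and not Ucp1. It held 82 fragments (65.2 to 102), near the number of TRBS 3, but its fold was 5.42 because its input background was the highest of the 15, 14.3 fragments on the ChIP scale. No summit lay in the body of Ucp1. Mgat4d and Clgn, whose TSS also lie within 100 kb of Ucp1, were the nearest gene of no TRBS, like Dnajb13 beside Ucp2.

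**Figure D2:**
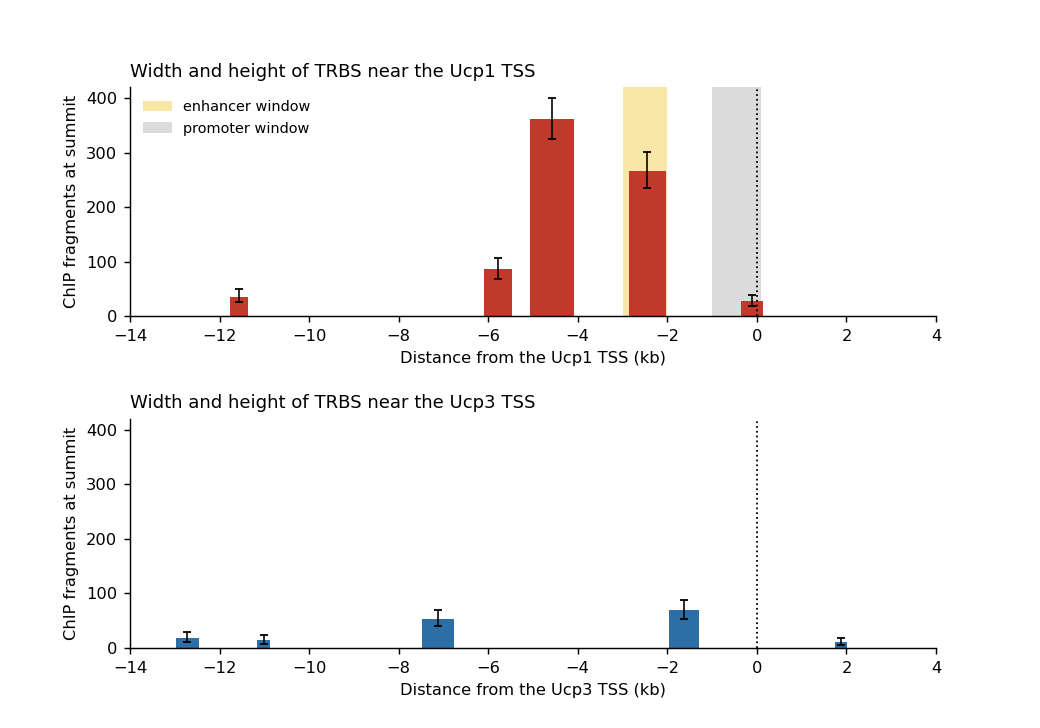
TRBS near the TSS of Ucp1 (top) and Ucp3 (bottom), drawn from start to end against distance from the TSS in kb, with bar height showing ChIP fragments at the summit and 95% Poisson intervals. The enhancer window of Ucp1 holds TRBS 5 with 267 fragments, TRBS 4 with 362 stands outside it, and the promoter TRBS has 27.

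The Ucp2-Ucp3 locus had 8 TRBS, with a median of 16 fragments and a highest value of 69, against a median of 82 and a highest value of 362 over the 7 at Ucp1. The ranges overlapped, since its 3 strongest TRBS held more fragments than Ucp1 TRBS 1, 2 and 6, and the median folds were close, 10.1 against 12.4. Its strongest was TRBS 5 (chr7:100471021-100471707, intergenic), with its summit 1586 bp upstream of the Ucp3 TSS (Ucp3, chr7:100472990-100486432, plus strand), 69 fragments (53.7 to 87.3) and a fold of 39.9. The number of fragments at Ucp1 TRBS 4 was 5.25 times this value, with an exact interval of 4.05 to 6.89 for counting error. Their input backgrounds were 4.57 and 0.756, and the fold at Ucp1 TRBS 4 was 1.64 times the fold here. TRBS 4 (chr7:100465519-100466218) held 54 fragments (40.6 to 70.5) and lay 7095 bp upstream of Ucp3 in an intron of C2cd3, the gene next to Ucp3. TRBS 1 (chr7:100434204-100434744), 38593 bp upstream, also in a C2cd3 intron, held 41 (29.4 to 55.6).

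The other 5 TRBS of this locus held 6 to 18 fragments. TRBS 2 and 3, with 18 and 14 fragments, lay 12669 and 10989 bp upstream of Ucp3 within C2cd3. TRBS 6 (chr7:100474725-100475001), with 10 fragments (4.80 to 18.4), was the only TRBS of the 15 inside an uncoupling protein gene, in an intron of Ucp3, 1863 bp downstream of the TSS. TRBS 7 and 8 belonged to Coa4, which encodes an assembly factor of cytochrome c oxidase: TRBS 7 held 10 fragments 175 bp upstream of its TSS, and TRBS 8 held 6 in an untranslated region of that gene. Scores under 60, the level under which the study's methods drop a peak, were found for 3 of these 8 TRBS and for none of the 7 at Ucp1, against 897 of all 5107.

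Ucp2 (chr7:100493337-100502020, plus strand) had no TRBS within 10 kb of its TSS and none in its body. Its nearest TRBS was the intronic one of Ucp3, 18484 bp upstream, and the strongest of the locus lay 21933 bp upstream. Within 30 kb Ucp2 had 3 TRBS, Ucp3 had 5 and Ucp1 had 5, and 16.7% of 21938 protein-coding genes had at least 1. All 3 genes had a TRBS within 100 kb, as did 38.3% of protein-coding genes, so a TRBS at this distance was common. At least 7 TRBS within 100 kb, the number at Ucp1, were found for 0.802% of protein-coding genes, and the 3 uncoupling protein genes were among them. With TRBS of a score of at least 60 alone, Ucp1 kept 7 while Ucp2 and Ucp3 had 5 and were no longer among them, and the share was 0.520%. The next TRBS beyond the limit were far off, 262032 bp upstream and 394677 bp downstream of Ucp1, while the outermost inside it was at 55734 bp. For Ucp3 the outermost inside was at 66836 bp downstream, and the next outside were 462055 bp upstream and 367690 bp downstream. Since the deposited list starts at 5 fragments and holds no pileup between peaks, weaker occupancy near Ucp2 was not detectable at this depth.

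The occupancy in the 10 kb upstream of each TSS was summed as fragments above input background over the TRBS there. Ucp1 had 727, Ucp3 had 121 and Ucp2 had 0. When TRBS with a background over 100 were left out, Ucp1 ranked 1 and Ucp3 ranked 6 of 21938 protein-coding genes, of which 867 had a sum above 0. Thrsp, a T3-responsive gene of fatty acid synthesis, came after Ucp1 with 213. With all TRBS kept, the ranks were 10 and 15, behind genes of a stretch of chromosome 9 with a median input background of 738.

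**Figure D3:**
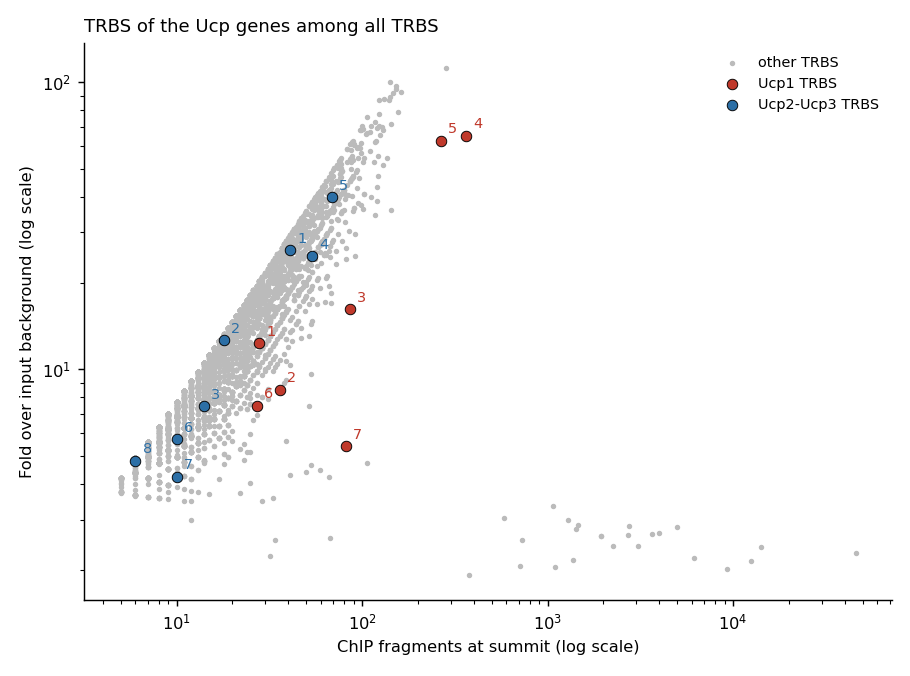
Fold over input background against ChIP fragments at the summit, both on log axes, for the 15 numbered TRBS of the uncoupling protein genes and all other TRBS (grey). Ucp1 TRBS 4 and 5 lie far to the right at folds of 65.2 and 62.7, and the Ucp1 TRBS sit to the right of most TRBS of equal fold, while those of Ucp2-Ucp3 sit among them.

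Fragments and fold differ by the input background, which was raised around Ucp1. The background is the local input level that the peak caller used, on the scale of the ChIP library, where 1 input fragment counts as 0.304. At Ucp1 it was 1.34 at TRBS 1, 3.35 at TRBS 2, 4.37 at TRBS 3, 4.57 at TRBS 4, 3.28 at TRBS 5, 2.74 at TRBS 6 and 14.3 at TRBS 7. The median over all TRBS was 0.672, and all 7 were above it, as were 5 of the 8 at Ucp2-Ucp3. A background of at least 2.74, a level set after the values had been seen, was found at 6 of the 7 Ucp1 TRBS, at none of the 8 of Ucp2-Ucp3 and at 1.57% of all TRBS. The 8 TRBS of Ucp2-Ucp3 ranged from 0.454 to 1.60, with a median of 0.840 against 3.35 at Ucp1.

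In fragments of the input library itself, TRBS 4 of Ucp1 had 15 at its summit (8.40 to 24.7), TRBS 2 had 11 (5.49 to 19.7) and the promoter TRBS had 9 (4.12 to 17.1), where the genome-wide level is 1.41 per position. TRBS 5 had 39 in the surrounding 1000 bp (27.7 to 53.3) and TRBS 3 had 52 (38.8 to 68.2). These 2 counts cover 1000 bp and do not compare with the level per position. On a common scale, the background was 7.62 times the genome-wide level at TRBS 5, 10.2 times at TRBS 3 and 10.6 times at TRBS 4. The TRBS at Elmod2 had 47 at its summit (34.5 to 62.5), so its ChIP fragments came with a high input at the same place. Of 350 TRBS at promoters, 6, this one included, had a background at least as high, and the median of the 350 was 1.01.

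TRBS farther from Ucp1 had lower backgrounds. Beyond 100 kb but within 1.5 Mb of Ucp1, 17 TRBS had backgrounds of 0.430 to 2.13, with a median of 0.913, all under the 6 higher values near the gene. Other strong TRBS rarely had such values: of 96 others with at least 82 fragments and a background of at most 100, 3 had a background of at least 2.74. Among 596 protein-coding genes with at least 5 TRBS within 100 kb, the median background of Ucp1 and its neighbour Elmod2 ranked 11, after 9 genes of the chromosome 9 stretch and the neighbour Mgat4d. The next gene away from these places, Frmd8, had 1.52. How much of the ChIP signal at Ucp1 goes with its raised input was not tested. A transgenic driver that carries Ucp1 flanking sequence would add copies of it and raise input and ChIP fragments alike. Since the driver is not given here, this was not tested, and the fragment numbers, their ranks and the upstream sum of 727 at Ucp1 are given without correction for copy number.

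**Figure D4:**
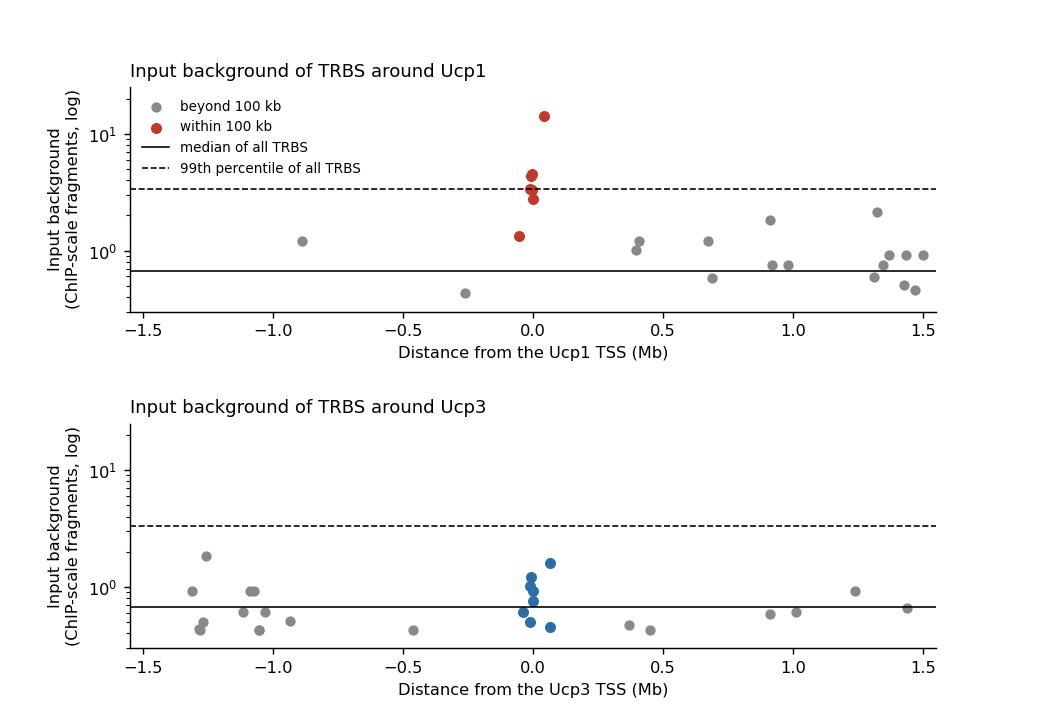
Input background of each TRBS (fragments on the ChIP scale, log axis) by distance from the TSS of Ucp1 (top) and Ucp3 (bottom) in Mb, with the median (solid line) and 99th percentile (dashed line) of all TRBS. The 7 TRBS within 100 kb of Ucp1 (red) reach from 1.34 to 14.3, and the 8 of Ucp2-Ucp3 (blue) from 0.454 to 1.60, among those farther away (grey).

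The strongest TRBS of both loci held no DR4 within 2 mismatches, and the closest matches lay in weaker TRBS. The element was searched as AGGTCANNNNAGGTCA on both strands of the whole peak, and mismatches were counted over its 12 half-site bases. With at most 2 mismatches it was found in 4 of the 15 members, 2 at each locus, in 32% of all TRBS and in 5.44% of flanking windows of the same width. TRBS 4 and 5 of Ucp1 were not among the 4, although they are wider than most, and the element was present in 56 of the 100 TRBS with at least 82 fragments and a background of at most 100. Of the 262 TRBS at least as wide as Ucp1 TRBS 5, 48.1% held the element. In both TRBS 4 and 5 of Ucp1, the closest match had 3 mismatches. That level was reached by 72.5% of all TRBS and 35.3% of flanks, whatever their width, and not counted for wide ones alone. The matches with 3 mismatches are the closest in these 2 wide TRBS. In TRBS 4 these were TGTTCAgatgAGGCCA, centred 38 bp from the summit, and AGGTGAgctgGGGACA, 24 bp from it on the other side. TRBS 4 held no exact half-site in its 1000 bp.

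The closest DR4 at either locus lay in the distal TRBS 1 of Ucp1, in the Tbc1d9 intron. It was AGGTCAcctgAGGTCA, without a mismatch, at chr8:83234601-83234616 on the minus strand, centred 10 bp from the summit. A DR4 without a mismatch was present in 1 of the 15 members and in 0.862% of all TRBS, 44 in number. Fragments at those 44 ranged from 7 to 87 with a median of 21.5, and 15 had more than the 28 of this TRBS. Read along the minus strand, 4 hexamers followed each other here with a spacer of 4 bp between each, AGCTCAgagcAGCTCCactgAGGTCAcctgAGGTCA (chr8:83234601-83234636), with 3 mismatches to AGGTCA in its 24 hexamer bases. This row was noticed in the sequence and then counted: 10 TRBS (0.196%) and 0 of 9870 flanking windows of equal width held 1 as close.

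At Ucp2-Ucp3 the closest DR4 was in TRBS 1, AGGCCAgttcAGGTCA at chr7:100434429-100434444 on the plus strand, with 1 mismatch and 39 bp from the summit. At most 1 mismatch was found in 2 of the 15 members and in 7.23% of all TRBS. TRBS 7, at the Coa4 promoter, held AGGTGActccAGGCCA with 2 mismatches, 13 bp from its summit. The strongest TRBS of the locus, TRBS 5, had GGGCCAcaggAGGGCA with 3 mismatches, 8 bp from its summit. At both loci the closest element thus lay in an intron of another gene.

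**Figure D5:**
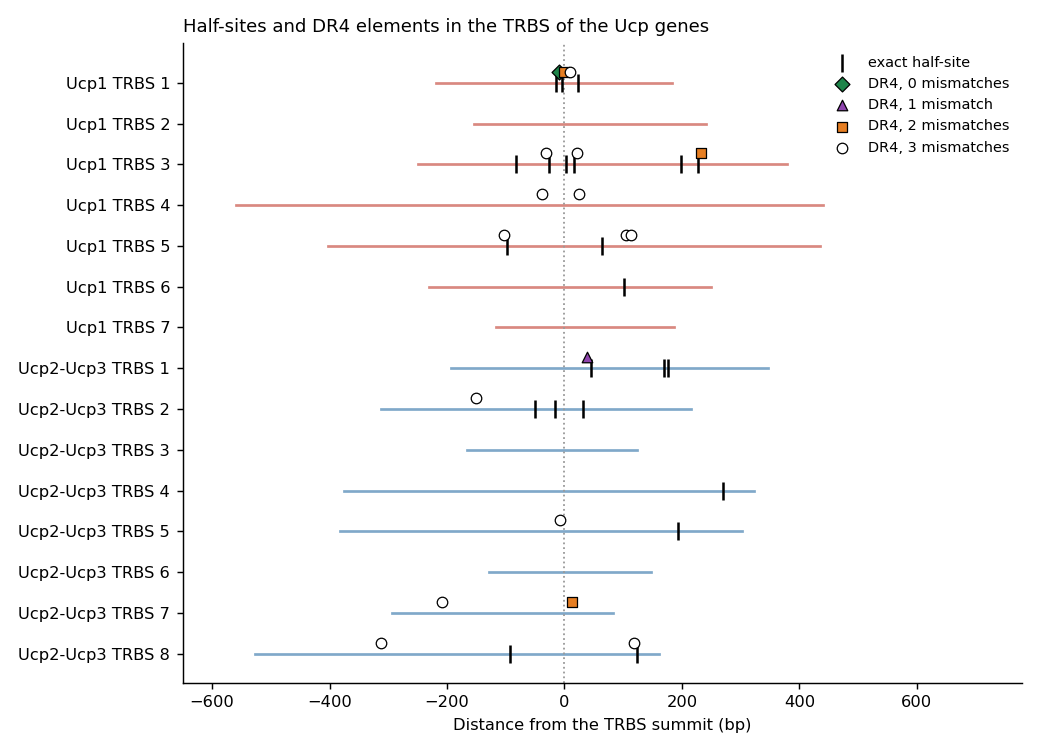
Exact half-sites (ticks) and DR4 elements with 0 to 3 mismatches (symbols) along each of the 15 TRBS, drawn from start to end against distance from the summit in bp, with Ucp1 in red and Ucp2-Ucp3 in blue. The DR4 without a mismatch is 10 bp from the summit of Ucp1 TRBS 1, and Ucp1 TRBS 4 has no half-site.

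The enhancer TRBS was searched for degenerate elements in the same way. Ucp1 TRBS 5 held 2 exact half-sites, starting 2562 and 2401 bp upstream of the TSS. The half-site at 2401 bp was part of a direct repeat with a 3 bp spacer (DR3), GGGGCAgcaAGGTCA, with 2 mismatches, and another DR3 with 2 mismatches, AGTTCAgtgTGGTCA, lay on the minus strand 2548 to 2534 bp upstream. Other arrangements with 2 mismatches were a DR2, AGGGCAccCGGTCA, a DR5, AGGTGAcgactAGTTCA, and inverted repeats on each exact half-site, AGGTCAacccTTTCCT with a 4 bp spacer and GGGTCAgtcaccctTGACCA with an 8 bp spacer. Within 150 bp of the summit, DR3 with at most 2 mismatches occurred in 3 of the 7 Ucp1 TRBS, in none of the 8 at Ucp2-Ucp3, in 8.36% of all TRBS and in 3.56% of flanks. Of the 27 arrangements searched, DR3 was the only one in more than 1 Ucp1 TRBS. DR4 occurred in 1 of the 7 and in 2 of the 8. In these windows DR2, DR5 and inverted repeats with 4 and 8 bp spacers occurred in 6.64%, 8.99%, 3.78% and 3.70% of all TRBS. Their shares of flanks were 4.63%, 3.11%, 1.48% and 1.33%. Ucp1 TRBS 5 was searched over its whole 839 bp, which is wider than the windows of these shares. Its DR4 matches with 3 mismatches were GCGTCAcagaGGGTCA, ATGTCAactcAAGGCA and AGGCCCcgtgATGTCA. The core of a CRE, TGACG, lay on the minus strand at 2571 and 2530 bp upstream. A CRE core occurred in 13.3% of TRBS windows and 9.82% of flanks, and it was present in 3 of the 7 at Ucp1 and 1 of the 8 at Ucp2-Ucp3.

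TRBS 3, beside TRBS 4, was the opposite of it in half-sites. It held 6, or 9.54 per kb, where all TRBS together had 2.95 per kb and flanks 1.28 per kb. A pair of them made an everted repeat with an 8 bp spacer (ER8), TGACCCtttctgcaAGGTCA, with 1 mismatch and 9 bp from the summit. An ER8 with at most 2 mismatches occurred in 4.88% of TRBS windows and 1.54% of flanks. Its DR4 with 2 mismatches, AGCTCTtgctAGGTCA, was farther off, 232 bp from the summit. Summed over each locus, half-sites numbered 2.96 per kb at Ucp1 and 2.44 per kb at Ucp2-Ucp3, and TRBS 2, 4 and 7 of Ucp1 held none. These matches are descriptions of the sequence. Beside 27 arrangements with spacers of 0 to 8 bp, motifs of other factors were searched within 150 bp of the summit. The full CRE, TGACGTCA, and the ERR and NF1 motifs occurred in none of the members. The EBF motif CCCNNGGG occurred in 2 of the 7 at Ucp1, 4 of the 8 at Ucp2-Ucp3 and 19.8% of all TRBS. The C/EBP motif TTGCNNAA occurred in 2 of the 7, none of the 8 and 18.7% of all TRBS.

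The promoters were searched for half-sites, CRE cores and DR4. RefSeq windows of 300 bp, from 250 bp before to 50 bp after the start of each gene in GRCm38.p6, are printed for Ucp1, whose promoter carried a TRBS, and for Ucp3, whose promoter carried none, with exact half-sites in capitals, plus strand.
Ucp1 promoter, chr8:83290098-83290397: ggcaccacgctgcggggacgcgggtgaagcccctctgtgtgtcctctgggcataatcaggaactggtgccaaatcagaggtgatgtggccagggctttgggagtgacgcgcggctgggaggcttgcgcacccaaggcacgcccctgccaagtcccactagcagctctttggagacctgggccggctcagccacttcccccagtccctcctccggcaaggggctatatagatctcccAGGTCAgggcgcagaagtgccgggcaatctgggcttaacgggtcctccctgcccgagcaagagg
Ucp3 promoter, chr7:100472741-100473040: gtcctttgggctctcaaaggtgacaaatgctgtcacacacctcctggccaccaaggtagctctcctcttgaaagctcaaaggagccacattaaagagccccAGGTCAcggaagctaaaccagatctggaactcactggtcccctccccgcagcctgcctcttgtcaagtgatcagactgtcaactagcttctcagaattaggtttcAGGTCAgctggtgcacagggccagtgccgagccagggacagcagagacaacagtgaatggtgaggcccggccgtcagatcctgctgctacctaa

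Of 32851 such windows, 27.5% held a half-site, 20.8% a CRE core and 3.02% a DR4 with at most 2 mismatches. The Ucp1 window held 1 half-site, 18 bp upstream of the TSS, 1 CRE core, 151 bp upstream and near the summit of TRBS 6, and no DR4. The Ucp2 window held no half-site, 1 CRE core and no DR4. The Ucp3 window held 2 half-sites, 1 CRE core and 1 DR4 with 2 mismatches, AGGTCAcggaAGCTAA (chr7:100472842-100472857), 148 bp upstream of the TSS. No TRBS covered that element, and the nearest summit, that of TRBS 5, was 1446 bp away. The wider promoter window of Ucp1, which reaches 1000 bp upstream, also held a DR4 with 2 mismatches outside any TRBS, AGATCAactaAGCTCA, 629 to 614 bp upstream of the TSS. Inside the promoter TRBS of Ucp1 the closest DR4 match had 4 mismatches. The wider window of Ucp1 was also searched for the 27 arrangements. With 2 mismatches, the promoter TRBS held a DR1, 55 to 67 bp downstream of the TSS. It also held a stretch that reads both as DR3 and as an everted repeat with the same spacer, 27 to 13 bp upstream. A DR6 lay outside any TRBS, 735 to 718 bp upstream.

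The genes that work with the uncoupling proteins were followed in 3 lists. Of 9 related carriers of the inner mitochondrial membrane, among them the brain uncoupling proteins Slc25a14 and Slc25a27, none had a TRBS within 30 kb and 3 had one within 100 kb, where the shares for all protein-coding genes were 16.7% and 38.3%. Of 22 factors known at the Ucp1 enhancer and promoter or their partners, 14 had a TRBS within 30 kb. Ppara, a receptor of fatty acid oxidation, and Cebpb, an adipogenic factor, had 6 each. Ppargc1a, the coactivator induced by cold, had 4, and Thra, which encodes TRα itself, had 3. The strongest TRBS within 30 kb held 46 fragments at Ppara, 83 at Cebpb, 65 at Ppargc1a and 11 at Thra. The median of all TRBS was 17. The 8 without one included Creb1, which binds CRE, and Prdm16, which sets brown fat identity. Of 12 genes that bring signal, hormone or fuel, 6 had a TRBS within 30 kb: the lipases Pnpla2 and Lipe had 5 and 4, and Cidea, a lipid droplet protein, had 3. The strongest there held 46 fragments at Pnpla2, 30 at Lipe and 13 at Cidea. Dio2, which activates thyroid hormone, Adrb3, the adrenergic receptor of adipocytes, and Cd36, a fatty acid transporter, had none within 30 kb. No list was tested against the shares for all protein-coding genes.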

How the data were processed

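Per the submitters' processing notes, the authors used Bowtie2 2.3.2.2 and MACS2 2.1.1.20160309.6 on mm10 (GRCm38). They called peaks in 1 ChIP library against 1 input library, and the deposited list held 5107. Its deposited columns are a score (10 times the −log10 q), a fold over local input and −log10 p- and q-values. The list was not filtered at a score of 60. From the fold (with a pseudocount of 1) and the −log10 p, the whole number of ChIP fragments and the background at each summit were recovered within 0.0005 for 5090 peaks. For 5052 of these, the 15 members included, only 1 whole number matched. The 17 unmatched peaks all had a background over 100, and their nearest values were kept in ranks over the whole list. Read totals were not used. The recovery and the element search were tested on simulated data.

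TSS were those of GENCODE genes on GRCm38, and promoters came from RefSeq. Flanks lay 2000 bp beyond each peak. Python 3.11.15, numpy 2.4.6, scipy 1.17.1 and pandas 2.3.3 were used, with 95% Poisson or exact intervals. Named genes were Ucp1 to Ucp3, genes nearest a member or with a TSS within 100 kb, and up to 6 per list with most or no TRBS within 30 kb. Tbc1d9 and C2cd3 were named because members lay in their introns. Genes with comparable upstream sums or backgrounds were added after their values were seen. The members, lists and thresholds were chosen with earlier results of these data known. Alternatives changed the score, distance limit, peak edges, merging, gene set and mismatches.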

Additional observations from a re-analysis of the deposited data

How the results depend on the processing

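The number of TRBS within 100 kb of Ucp1 stayed between 5 and 7 under all 7 alternatives tried. For Ucp2 and Ucp3 it fell from 8 to 5 at a score of at least 60 and to 4 at a score of at least 100, and a limit of 30 kb left 3 for Ucp2 and 5 for Ucp3. The share of protein-coding genes with a TRBS within 100 kb was 33.6% and 28.3% at those scores, 16.7%, 24.0% and 55.5% at limits of 30, 50 and 200 kb, and 30.5% over genes of all types. The share with at least as many as Ucp1 was 0.520% and 0.205% at those scores, 0.283%, 0.337% and 3.48% at those limits, and 0.603% over genes of all types. Members with a DR4 numbered 2 at 1 mismatch and 9 at 3 mismatches, and the share of all TRBS was 7.23%, 72.5%, 27.5% within 100 bp of the summit and 34.4% at a score of at least 60. The median backgrounds moved by less than 1.5 times under every alternative, including one added after seeing the data, without the Elmod2 TRBS (3.31). No paired analysis was possible because each group held 1 library. Depth limits the weak TRBS most: at 10 fragments the 95% interval runs from 4.80 to 18.4.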
